A study of Mus musculus with 15 samples.

Results

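The genes of the Wnt signalling pathway described here are its ligands, receptors, inhibitors and effectors, measured in 5 mouse embryonic stem (ES) cell lines. They were chosen by symbol alone: every gene whose symbol begins with Wnt, Fzd, Sfrp, Dkk, Rspo or Axin, together with Lef1, Tcf7l1, Tcf7l2, Ctnnb1, Lrp5, Lrp6, Nkd1, Notum and Sp5. This gave 54 of the 18193 genes on the array, and the brightest probe set of each gene, by its mean over all arrays, stood for it. Tcf7 was not analysed here. The symbols also took in Fzd10os, an antisense RNA next to Fzd10, and Dkkl1, a Dickkopf-like protein known from sperm and early embryos.

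RNA from each line was hybridised to 3 Affymetrix mouse genome arrays. The deposited values are log2 intensities, on which 1 unit is a 2-fold difference. NmB6D2 was a fertilised line, made by natural mating of female C57BL6 with male DBA2 mice. R1, the other fertilised line, was purchased, and its background is a cross of the substrains 129S1/SvImJ and 129X1/SvJ. OpB6D2 was parthenogenetic, from ovulated B6D2F1 oocytes that were activated without sperm. FpB6D2 and FpB6CBA were also parthenogenetic, but their oocytes had grown in follicles kept in culture. The follicles of FpB6D2 were from B6D2F1 mice and those of FpB6CBA from B6CBAF1 mice, hybrids of female C57BL6 and male CBA/Ca parents. Follicles were taken from prepubertal females 2 weeks old. Each line is a single derivation, so genetic background, mode of origin and the history of a line cannot be told apart. The labels do not say that the 3 arrays of a line came from separate cultures, so the p values measure only the spread between arrays.

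Wnt proteins are secreted ligands that bind Frizzled receptors with the co-receptors Lrp5 and Lrp6. In the canonical branch this stops the Axin-based destruction complex from degrading β-catenin, which then enters the nucleus and works with Tcf and Lef factors on target genes. In mouse ES cells the pathway is known for helping to keep cells undifferentiated, with Tcf7l1 acting as a repressor of pluripotency genes, and in the embryo it is known for starting the primitive streak. Several targets, among them Axin2, Dkk1, Notum and Nkd1, feed back to dampen the signal.

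Array medians over the tested genes were 6.634 to 6.79, and no 2 arrays held identical values. The correlation over genes, which are not independent replicates, was 0.995 to 0.998 within a line and 0.951 to 0.987 between lines. The ES factors Pou5f1 (line means 11.38 to 12.02) and Sox2 (10.96 to 11.26) were high in every line. Testing was limited to genes at or above 3.864, the median over all probe sets and arrays, on 3 or more arrays. A gene was called at a Benjamini-Hochberg adjusted p under 0.05 in the limma fit over all 12813 tested genes with at least a 2-fold difference.

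Of the 54 members, 42 passed the filter on low values. The other 12 were Wnt1, Wnt2b, Wnt3, Wnt3a, Wnt8b, Wnt9b, Wnt10b, Wnt16, Rspo1, Rspo4, Dkk2 and Dkk4. R1 stood above the other 4 lines for target genes, ligands, an R-spondin, receptors and an inhibitor. Among the 5 lines 23 of the 42 members were called, 54.8%, against 32.9% of all tested genes. By adjusted p alone the share was 78.6% of the members and 87% of all genes. R1 was called higher than each of the other 4 lines for 10 members, 23.8% of those tested, where 2.79% of all genes had that pattern. These were Dkk1, Rspo3, Sp5, Wnt5a, Axin2, Fzd1, Fzd2, Wnt4, Wnt5b and Fzd10. Rspo3, Wnt5b and Wnt8a passed the filter only through the R1 arrays, so members of this kind had to differ to be tested. No member was called lower in R1 than in each other line, a pattern of 1.46% of all genes. No member was called higher than in each other line in NmB6D2 (0.156% of all genes), OpB6D2 (0.14%), FpB6D2 (0.445%) or FpB6CBA (0.835%).

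**Figure D1:**
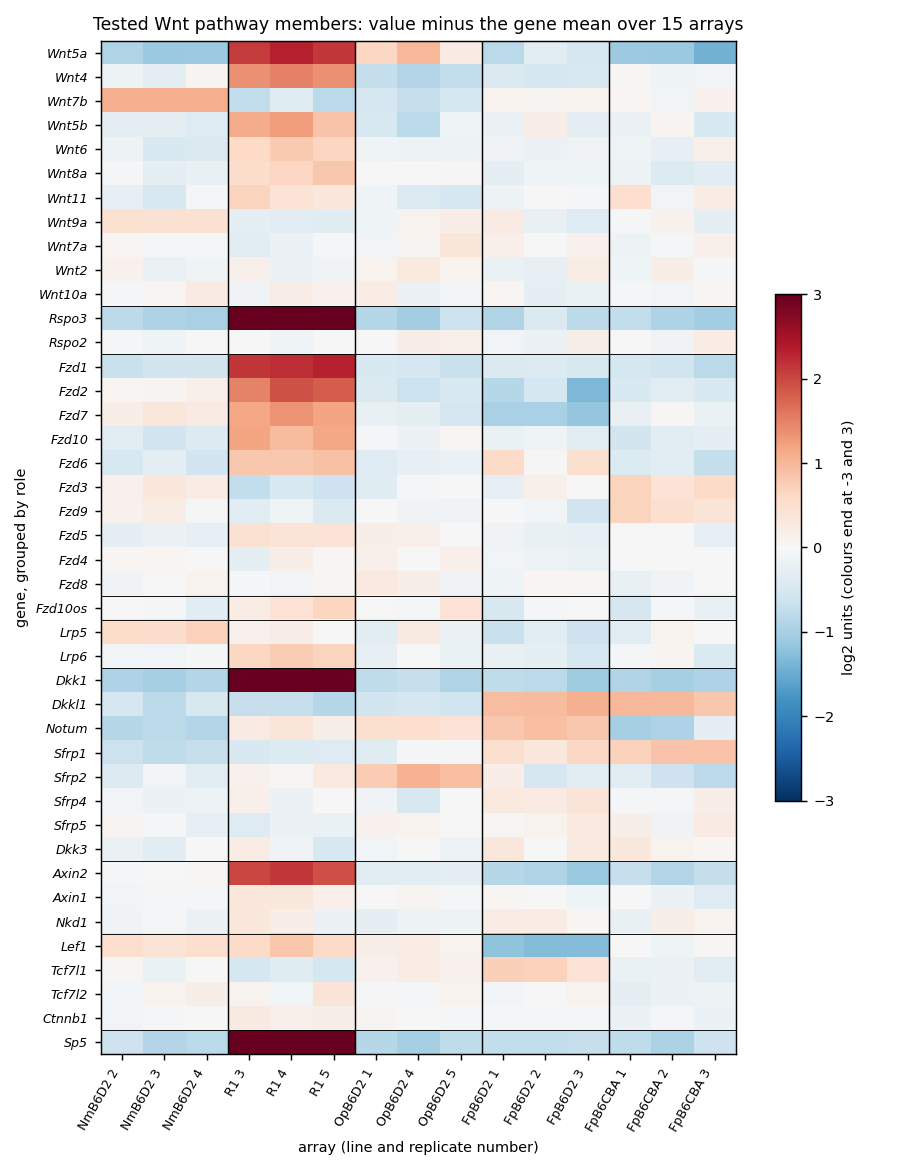
Heat map of the 42 tested members (rows, grouped by role) on the 15 arrays (columns, grouped by line). Colour is the log2 value minus the mean of the gene over the 15 arrays, and the colours end at -3 and 3 log2 units. The 3 R1 columns hold the strongest red, in genes of several roles, while Lef1 and Fzd7 are lowest in the 3 FpB6D2 columns.

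The promoters of Sp5 and Dkk1 are shown because these 2 targets were among the 3 members with the widest range of line means and because both windows hold letters that Tcf and Lef factors are known to favour. Each is the 250 bases before the RefSeq start site in GRCm38.p6, written 5′ to 3′ on the strand of the gene; the pair was picked after its values were seen. Sp5 lies on the plus strand at chr2:70474673-70474922 and Dkk1 on the minus strand at chr19:30549497-30549746. Capitals mark matches, on either strand, to CTTTGAA or CTTTGAT or CTTTGTA or CTTTGTT, motifs that do not overlap in these windows.
Sp5: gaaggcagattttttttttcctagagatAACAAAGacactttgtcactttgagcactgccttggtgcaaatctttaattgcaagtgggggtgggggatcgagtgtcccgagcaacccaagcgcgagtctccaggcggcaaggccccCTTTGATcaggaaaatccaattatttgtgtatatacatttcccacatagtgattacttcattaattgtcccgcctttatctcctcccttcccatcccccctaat
Dkk1: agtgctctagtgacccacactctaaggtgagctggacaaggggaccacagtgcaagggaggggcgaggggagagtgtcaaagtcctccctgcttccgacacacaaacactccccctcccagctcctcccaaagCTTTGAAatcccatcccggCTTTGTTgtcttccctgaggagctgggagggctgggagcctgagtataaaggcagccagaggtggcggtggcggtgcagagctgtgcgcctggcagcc

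In Sp5 the matches began 222 and 104 bases before the start, the first of them as AACAAAG, which is CTTTGTT on the opposite strand. In Dkk1 CTTTGAA began 117 and CTTTGTT 98 bases before the start. At least 1 match was found in 14.8% and at least 2 in 1.43% of the 32851 promoter windows of this length. Because the pair was chosen partly for its matches, these shares do not measure how unusual it is. Of the 10 genes higher in R1, 7 had a window in the table and 3 of these held a match, Wnt5b, with 3 windows, being the third. Axin2, Fzd1, Fzd10 and Wnt4 held none. The members had 43 windows, from 35 genes, and 7 windows held a match, a share of 16.3% that is near that of all windows. The match is a description of letters and was not tested as a site.

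Sp5 encodes a zinc finger transcription factor and is a direct target of Wnt and β-catenin. Its values were 4.22, 3.95 and 4.03 in NmB6D2, 8.02, 7.86 and 8.04 in R1, 3.98, 3.83 and 4.09 in OpB6D2, 4.09, 4.10 and 4.14 in FpB6D2, and 4.08, 3.89 and 4.22 in FpB6CBA. The 3 R1 arrays stood alone, and the arrays of the other 4 lines lay together near the lower end of the scale. R1 exceeded NmB6D2 by 3.91 ± 0.10 log2 units (SE of the fit, adjusted p = 4.8e-13), a 15-fold difference. Against the parthenogenetic lines R1 was 16.1-fold (OpB6D2), 14.6-fold (FpB6D2) and 15.1-fold (FpB6CBA) higher. These comparisons share the R1 arrays and are not independent of each other. The line means outside R1, 3.97 to 4.11, were just above the filter value, so the folds rest on values close to it.

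Axin2 is both a scaffold of the destruction complex and a widely used reporter of canonical signalling. Its values were 5.74, 5.78 and 5.82 in NmB6D2, 7.77, 7.91 and 7.72 in R1, 5.42, 5.46 and 5.50 in OpB6D2, 4.92, 4.87 and 4.67 in FpB6D2, and 5.08, 4.90 and 5.06 in FpB6CBA. No R1 array overlapped another line. NmB6D2 came next and OpB6D2 after it, while FpB6CBA and FpB6D2 were lowest and overlapped. R1 was 4.06-fold above NmB6D2 (adjusted p = 2.9e-11) and 7.88-fold above FpB6D2 (adjusted p = 6e-13). The neighbours FpB6CBA and FpB6D2 differed by 0.19 log2 units (adjusted p = 0.039), below the fold minimum. Axin1, the scaffold that is not itself a usual target, had line means of 7.50 to 7.94 and was not called. Nkd1, a feedback inhibitor that binds Dishevelled, was near the filter value in every line (3.80 to 4.14) and was not called. Another Nkd1 probe set, with line means below the filter value outside R1, had a mean of 4.34 in R1 and 3.10 to 3.24 elsewhere.

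Dkk1 is a secreted inhibitor that binds Lrp5 and Lrp6 and is itself a target of the pathway. Its values were 3.77, 3.71 and 3.82 in NmB6D2, 8.28, 8.42 and 8.07 in R1, 3.95, 4.02 and 3.81 in OpB6D2, 3.94, 3.89 and 3.64 in FpB6D2, and 3.80, 3.72 and 3.77 in FpB6CBA. R1 was far above every other array, while the other lines lay at or just around the filter value. R1 was at least 21-fold above NmB6D2 (adjusted p = 1.1e-13) and 20.1-fold above OpB6D2 (adjusted p = 1.8e-13). Where the mean of a line is below the filter value the fold is a lower bound, computed against that value.

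**Figure D2:**
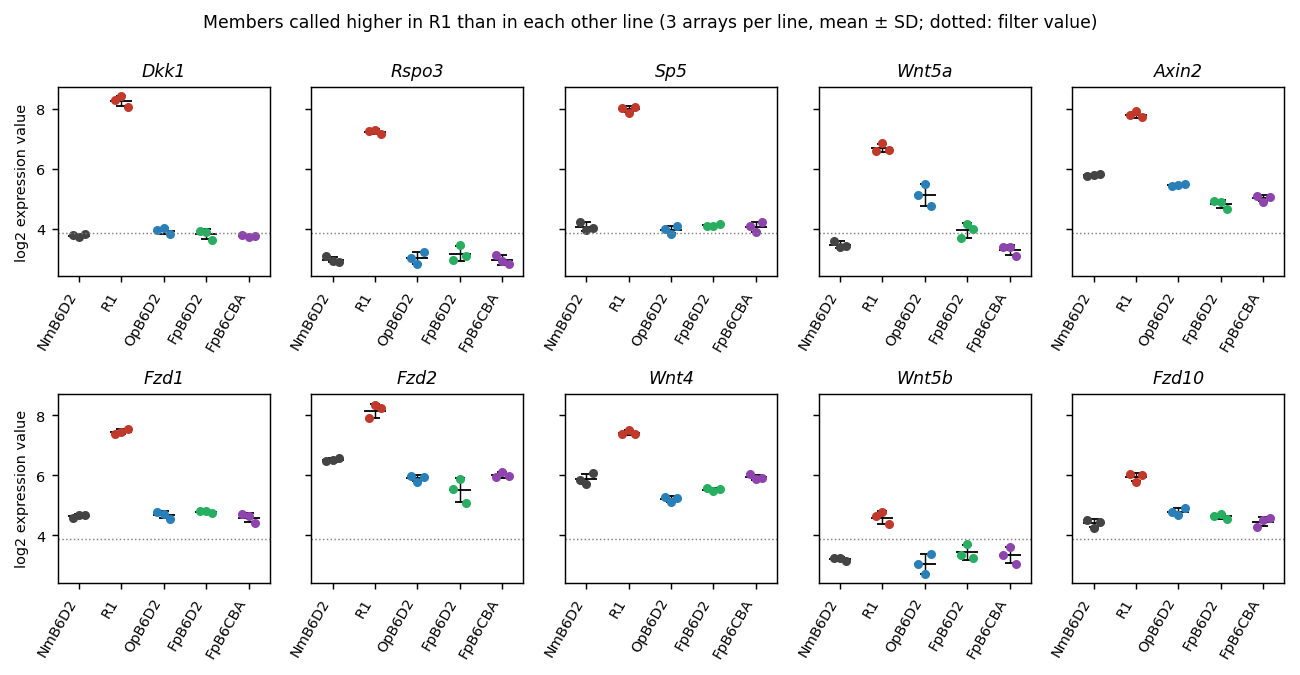
Values of the 10 members called higher in R1 than in each other line, 1 panel per gene, with log2 value on the vertical axis and line on the horizontal axis. Points are the 3 arrays of a line, bars are mean ± SD, and the dotted line is the filter value of 3.864. The R1 points lie above all others in each panel, and OpB6D2 lies between R1 and the rest for Wnt5a.

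Among the ligands, R1 was high for Wnt5a, Wnt5b and Wnt4, which are best known for β-catenin-independent signalling. Wnt5a gave 3.59, 3.39 and 3.42 in NmB6D2, 6.60, 6.84 and 6.62 in R1, 5.12, 5.49 and 4.74 in OpB6D2, 3.68, 4.15 and 3.99 in FpB6D2, and 3.40, 3.38 and 3.08 in FpB6CBA. R1 was highest and OpB6D2 second, with no overlap between these 2 lines or with the others. R1 exceeded NmB6D2 at least 7.07-fold (adjusted p = 8e-10), and OpB6D2 exceeded NmB6D2 at least 2.38-fold (adjusted p = 1.7e-06). FpB6D2 minus OpB6D2 was -1.18 log2 units (adjusted p = 4.7e-05), a call lost at -0.99 without OpB6D2 replicate 4. Averaging all Wnt5a probe sets ended the 3 calls of OpB6D2 against lines other than R1, with OpB6D2 minus NmB6D2 at 0.67, FpB6D2 minus OpB6D2 at -0.46 and FpB6CBA minus OpB6D2 at -0.65. A second Wnt5a probe set had the same lines on top, with 6.07 in R1 and 4.48 in OpB6D2 against 3.81 to 3.96 in the others.

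Wnt4 read 7.37, 7.50 and 7.37 in R1, and 5.11 to 6.07 on the other 12 arrays. R1 was above every other array, and OpB6D2 had the lowest mean. The R1 excess ranged from 2.78-fold over FpB6CBA to 4.59-fold over OpB6D2 (adjusted p = 4.7e-11). Wnt5b read 4.63, 4.77 and 4.36 in R1, and 2.71 to 3.71 elsewhere, where every array was below the filter value. The R1 excess of Wnt5b over NmB6D2 was 1.39 ± 0.18 log2 units (SE, adjusted p = 8.8e-06), and as a bound against the filter value at least 1.65-fold. Its 2-fold calls therefore rest on values below the filter. Wnt6 was 5.63 ± 0.10 (SD, n = 3) in R1 and 4.60 ± 0.17 (SD, n = 3) in NmB6D2. That difference, 1.02 log2 units (adjusted p = 3.9e-07), was just past the fold minimum, and the call was lost, at 0.95 to 0.995, without NmB6D2 replicate 3 or 4, without R1 replicate 4, and with averaged probe sets, median centring, quantile normalisation or array weights.

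Wnt3 and Wnt8a, ligands with known roles in the primitive streak, lay close to the filter. Wnt3 gave 4.33, 3.72 and 4.59 in R1 and 2.23 to 2.71 on the other arrays, but reached the filter value on only 2 arrays and was not tested. Wnt8a passed on the 3 R1 arrays alone, with a mean of 4.16 in R1 and 3.21 to 3.52 in the other lines, a range just short of the fold minimum. Wnt7b went the other way: NmB6D2 was highest. Its values were 7.62, 7.63 and 7.64 in NmB6D2, 5.80, 6.19 and 5.73 in R1, 6.05, 5.85 and 6.01 in OpB6D2, 6.65, 6.63 and 6.64 in FpB6D2, and 6.60, 6.47 and 6.67 in FpB6CBA. All NmB6D2 arrays lay above all others, the 2 follicle-derived lines came next, and R1 and OpB6D2 were lowest and overlapped. Relative to NmB6D2, Wnt7b was 3.31-fold lower in R1 (adjusted p = 2.6e-09), 3.17-fold lower in OpB6D2 (adjusted p = 1.1e-08) and 2.07-fold lower in FpB6CBA, the last a call lost at -0.996 without FpB6CBA replicate 2. The FpB6D2 difference of -0.99 log2 units fell just short of the fold minimum. The other tested ligands, Wnt2, Wnt7a, Wnt9a, Wnt10a and Wnt11, were not called, and the line means of each spanned at most 0.82 log2 units.

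R-spondins are secreted proteins that raise sensitivity to Wnt by protecting Frizzled receptors from removal. Rspo3 gave 3.07, 2.93 and 2.90 in NmB6D2, 7.24, 7.29 and 7.14 in R1, 3.01, 2.83 and 3.22 in OpB6D2, 2.96, 3.44 and 3.08 in FpB6D2, and 3.14, 2.94 and 2.82 in FpB6CBA. It was well above the filter value on the R1 arrays and below it on the 12 others. The difference between R1 and NmB6D2 was 4.26 ± 0.12 log2 units (SE, adjusted p = 2.8e-12), and against the filter value R1 was at least 10.3-fold higher. Rspo2 was flat (4.29 to 4.48 in the 5 lines) and was not called.

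Of the 10 Frizzled receptors, all of which passed the filter, 6 were called among the lines (32.9% of all genes) and 3 were higher in R1 than in every other line (2.79% of all genes). Fzd1 was 7.36, 7.43 and 7.53 in R1, and 4.42 to 4.81 on the other 12 arrays. R1 was clear of all other lines, which lay together, and exceeded NmB6D2 6.99-fold (adjusted p = 2e-12). Fzd2 was 6.46, 6.49 and 6.56 in NmB6D2, 7.89, 8.32 and 8.24 in R1, 5.98, 5.78 and 5.95 in OpB6D2, 5.55, 5.88 and 5.07 in FpB6D2, and 5.95, 6.10 and 5.96 in FpB6CBA. R1 did not overlap any other line and exceeded NmB6D2 3.13-fold (adjusted p = 5.5e-07), and all 3 Fzd2 probe sets had R1 highest. At the low end, FpB6D2 was 2.01-fold below NmB6D2 for Fzd2 (adjusted p = 7.5e-05), a call lost, at -0.98 to -0.79, without FpB6D2 replicate 3 or NmB6D2 replicate 4, with averaged probe sets, median centring or array weights, and with a replicate block. Fzd10 was 5.94 ± 0.13 (SD, n = 3) in R1 and 4.40 to 4.78 in the other lines. R1 exceeded NmB6D2 for Fzd10 by 1.54 log2 units (adjusted p = 6.3e-09), but all 4 R1 calls were lost when its 2 probe sets were averaged, the second lying below the filter value on every array.

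Fzd7, a receptor known for its part in pluripotent cells, gave 8.08, 8.22 and 8.14 in NmB6D2, 9.04, 9.24 and 9.07 in R1, 7.66, 7.63 and 7.38 in OpB6D2, 6.91, 6.91 and 6.72 in FpB6D2, and 7.67, 7.92 and 7.70 in FpB6CBA. R1 was highest and FpB6D2 lowest, and neither overlapped another line. R1 exceeded OpB6D2 2.95-fold, FpB6D2 4.82-fold and FpB6CBA 2.56-fold (the last adjusted p = 1e-08), while its excess over NmB6D2 (0.97 log2 units) was just short of the fold minimum. FpB6D2 was 2.46-fold below NmB6D2 (adjusted p = 2.9e-08), a call lost at -0.61 when probe sets were averaged. A second Fzd7 probe set also had R1 highest, at 5.01, but FpB6D2 came next at 4.34, above 4.155 to 4.267 in the others. The low place of FpB6D2 for Fzd7 therefore depends on the probe set. Fzd6 was 7.01 ± 0.040 (SD, n = 3) in R1, 6.55 ± 0.29 (SD, n = 3) in FpB6D2 and 5.70 to 5.90 in the other 3 lines. R1 exceeded NmB6D2 2.43-fold (adjusted p = 1.2e-06), and FpB6D2 minus R1 was -0.46 log2 units (adjusted p = 0.0078), below the fold minimum. Fzd3 was lowest in R1, at 4.63 ± 0.14 (SD, n = 3), and highest in FpB6CBA, at 5.79 ± 0.13 (SD, n = 3), and these differed 2.25-fold (adjusted p = 6.2e-07). With the probe sets averaged, the Fzd6 and Fzd3 calls that involve R1 were lost. Fzd4, Fzd5, Fzd8, Fzd9 and the antisense RNA Fzd10os were not called, with ranges of line means up to 0.81.

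The co-receptors Lrp5 and Lrp6 were both lowest in FpB6D2. Lrp5 read 5.15, 5.13 and 5.31 in NmB6D2, and 3.94, 4.27 and 3.995 in FpB6D2. The 2 lines did not overlap, and Lrp5 was 2.19-fold lower in FpB6D2 (adjusted p = 1.2e-05). Lrp6 read 7.59, 7.71 and 7.62 in R1, and 6.74, 6.68 and 6.44 in FpB6D2. FpB6D2 minus R1, at -1.02 log2 units (adjusted p = 2.5e-06), was just past the fold minimum. The call was lost, at -0.999 to -0.15, without FpB6D2 replicate 3 or R1 replicate 4 and with averaged probe sets, median centring, quantile normalisation or array weights. A second Lrp6 probe set gave the opposite order, with R1 lowest at 5.29 and the other lines at 5.83 to 6.10, so the direction for Lrp6 depends on the probe set.

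**Figure D3:**
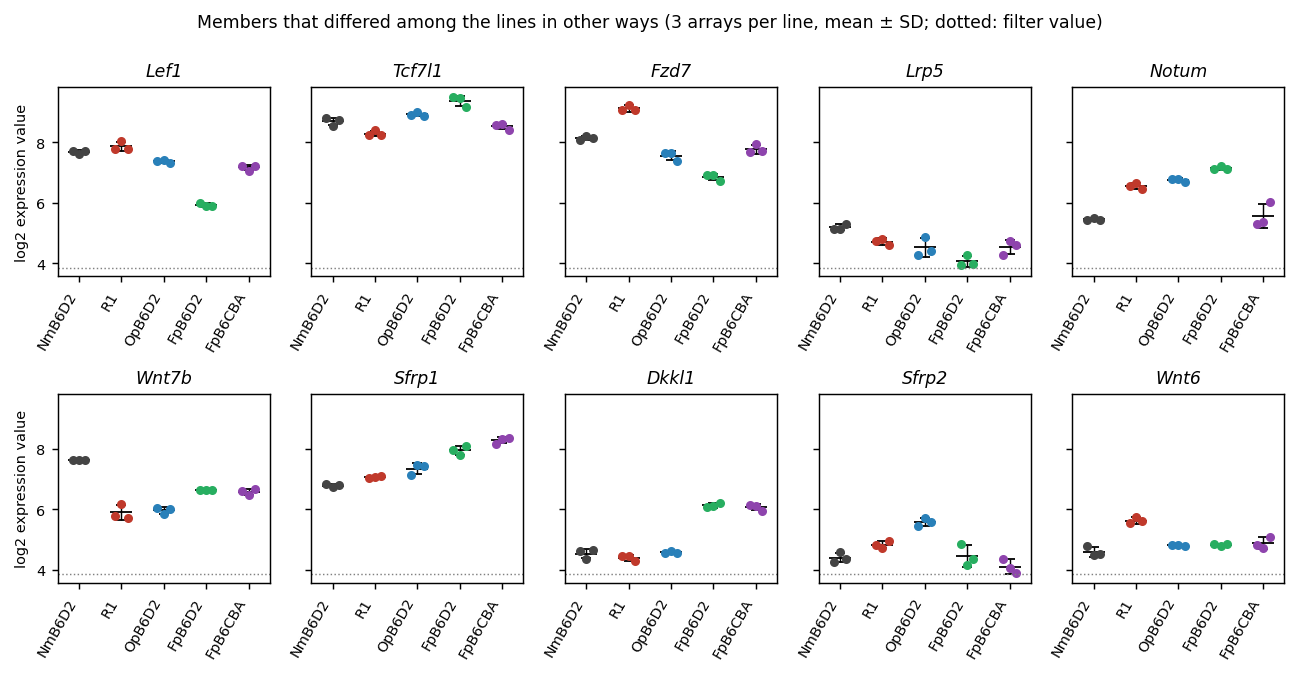
Values of 10 members that differed among the lines in other ways, 1 panel per gene, with log2 value on the vertical axis and line on the horizontal axis. Points are the 3 arrays of a line, bars are mean ± SD, and the dotted line is the filter value of 3.864. Lef1 and Fzd7 are lowest in FpB6D2, Wnt7b is highest in NmB6D2, Dkkl1 is high in FpB6D2 and FpB6CBA, and Sfrp2 is highest in OpB6D2.

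The secreted inhibitors had no single pattern, and 5 of the 8 tested were called among the lines (32.9% of all genes). Dkkl1 is counted among both the 8 and the 5 by its symbol alone. Notum, an enzyme that removes the lipid which Wnt proteins need for activity, gave 5.44, 5.50 and 5.42 in NmB6D2, 6.55, 6.67 and 6.47 in R1, 6.78, 6.79 and 6.70 in OpB6D2, 7.11, 7.20 and 7.12 in FpB6D2, and 5.30, 5.38 and 6.02 in FpB6CBA. FpB6D2, OpB6D2 and R1 were high and NmB6D2 and FpB6CBA low, with FpB6CBA replicate 3 standing between. Notum exceeded NmB6D2 3.23-fold in FpB6D2 (adjusted p = 1e-07), 2.47-fold in OpB6D2 and 2.16-fold in R1. The 2 follicle-derived lines differed 2.99-fold from each other (adjusted p = 2e-07).

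Dkkl1 gave 4.61, 4.36 and 4.66 in NmB6D2, 4.45, 4.46 and 4.29 in R1, 4.57, 4.62 and 4.56 in OpB6D2, 6.06, 6.11 and 6.22 in FpB6D2, and 6.14, 6.12 and 5.96 in FpB6CBA. Both follicle-derived lines were high, and neither overlapped the other 3 lines, which lay together. Dkkl1 exceeded NmB6D2 3.01-fold in FpB6D2 (adjusted p = 1.2e-09) and 2.89-fold in FpB6CBA (adjusted p = 6.3e-09), and FpB6CBA minus FpB6D2 was -0.06 log2 units (adjusted p = 0.58).

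Sfrp1, a secreted Frizzled-related protein that binds Wnts, gave 6.85, 6.72 and 6.79 in NmB6D2, 7.03, 7.07 and 7.10 in R1, 7.13, 7.45 and 7.43 in OpB6D2, 7.95, 7.79 and 8.10 in FpB6D2, and 8.16, 8.33 and 8.35 in FpB6CBA. The follicle-derived lines were again highest, and FpB6D2 exceeded NmB6D2 2.24-fold (adjusted p = 9.9e-08) and FpB6CBA 2.82-fold (adjusted p = 2.5e-08). The order of the lines depended on the probe set: the other 4 Sfrp1 probe sets had FpB6D2 highest, and the FpB6CBA calls were lost when all were averaged. In most of them FpB6CBA was below OpB6D2, at 7.24 against 7.52, 5.63 against 6.40 and 5.31 against 6.19. In the remaining probe set it was just above OpB6D2 (5.27 against 5.21). The mean of 18 hybridisation control probe sets was 10.021 to 10.109 on the FpB6D2 arrays, above all arrays of the other 3 lines at 9.356 to 9.733. On the FpB6CBA arrays it was 9.715 to 10.407, which overlapped those lines at its lower end. Their part in the Dkkl1 and Sfrp1 results was not tested. Sfrp2 was highest in OpB6D2, with 5.44, 5.73 and 5.58 in OpB6D2 against 3.90 to 4.96 on the other 12 arrays. OpB6D2 exceeded NmB6D2 2.25-fold (adjusted p = 3.5e-05), and FpB6D2 minus OpB6D2 was -1.12 log2 units, a call lost at -0.97 without FpB6D2 replicate 2. Dkk3, Sfrp4 and Sfrp5 were not called.

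Among the nuclear factors, Lef1 was lowest and Tcf7l1 highest in FpB6D2. Lef1 partners β-catenin and is also a target of the pathway. Its values were 7.70, 7.60 and 7.71 in NmB6D2, 7.77, 8.03 and 7.78 in R1, 7.38, 7.41 and 7.31 in OpB6D2, 5.997, 5.89 and 5.89 in FpB6D2, and 7.21, 7.06 and 7.22 in FpB6CBA. The FpB6D2 arrays lay below every other array. Lef1 was the 1 member called lower in FpB6D2 than in each other line, a pattern of 0.367% of all genes. It was 3.34-fold below NmB6D2 (adjusted p = 2e-10), 3.82-fold below R1, 2.72-fold below OpB6D2 and 2.36-fold below FpB6CBA (adjusted p = 5.3e-09). A second Lef1 probe set had FpB6D2 at 3.28 and the other lines at 4.51 to 5.78.

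Tcf7l1 read 8.23, 8.39 and 8.23 in R1, and 9.48, 9.44 and 9.16 in FpB6D2, the lines with its lowest and highest means. The difference was 1.08 ± 0.090 log2 units (SE, adjusted p = 1.2e-07), and the second probe set of the gene had the same highest and lowest line. Ctnnb1, which encodes β-catenin, was high in every line at 11.98 to 12.33 and was not called. The arrays measure its transcript and not the stability of the protein, the step that Wnt controls. Tcf7l2, another partner of β-catenin, stayed near the filter value (3.64 to 3.99) and was not called.

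Set out by pair of lines, every comparison with R1 held at least 12 called members. Against NmB6D2, R1 had 14 called members where 12.9% of all genes were called, which for the 42 members is a share of 33.3%. Of these 13 were higher in R1, or 31.0% of members against 7.39% of all genes, and Wnt7b alone was lower. The median difference was 0.30 log2 units over the tested members and -0.04 over all tested genes. OpB6D2 had 12 called members against R1 (28.6%, where 10.2% of all genes were called), all of them lower, as were 5.31% of all genes. FpB6D2 had 15 against R1 (35.7%, all genes 13.3%), of which 13 were lower (31.0%, all genes 7.58%) and Dkkl1 and Tcf7l1 higher. FpB6CBA had 15 against R1 (35.7%, all genes 18.2%), of which 12 were lower (28.6%, all genes 9.67%) and Dkkl1, Fzd3 and Sfrp1 higher. R1 had the highest line mean for 22 of the 42 tested members, 52.4%, against 24.6% of all tested genes.

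The comparisons without R1 held few members. OpB6D2 and NmB6D2 differed for 4 (9.52%, all genes 5.84%): Notum, Sfrp2 and Wnt5a were higher in OpB6D2 and Wnt7b lower. FpB6D2 and NmB6D2 differed for 7 (16.7%, all genes 10.7%), with Dkkl1, Notum and Sfrp1 higher in FpB6D2 and Fzd2, Fzd7, Lef1 and Lrp5 lower. FpB6CBA and NmB6D2 differed for 3 (7.14%, all genes 4.2%), Dkkl1 and Sfrp1 being higher in FpB6CBA and Wnt7b lower. The Sfrp1 and Wnt7b calls were lost when probe sets were averaged, which left 1. FpB6D2 and OpB6D2 differed for 4 (9.52%, all genes 3.75%), with Dkkl1 higher in FpB6D2 and Lef1, Sfrp2 and Wnt5a lower. FpB6CBA and OpB6D2 also differed for 4, Dkkl1 higher in FpB6CBA and Notum, Sfrp2 and Wnt5a lower, a share of 9.52% beside 10% of all genes. The 2 follicle-derived lines differed for Lef1 and Notum alone, 4.76% of members beside 11.2% of all genes. The member shares in the last 2 comparisons were at or below the background.

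**Figure D4:**
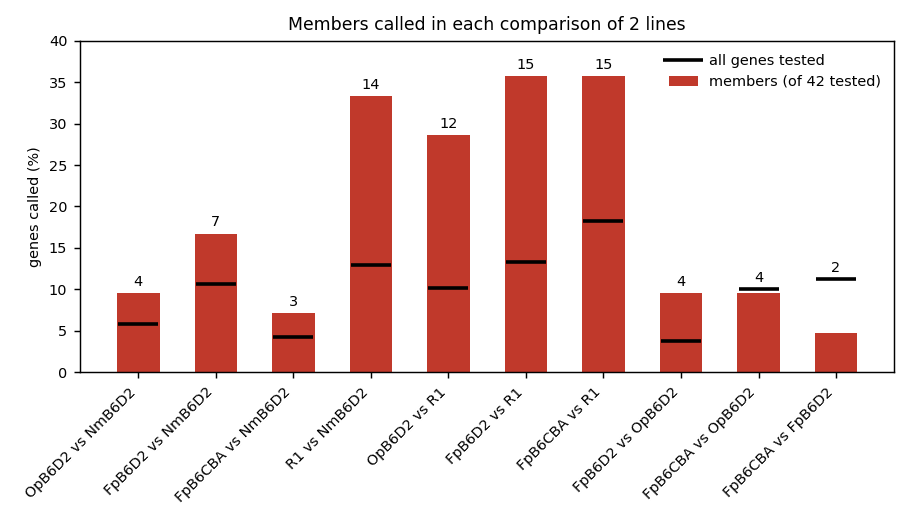
Share of the 42 tested members called in each comparison of 2 lines (bars, in percent, with the number of members above each) and share of all 12813 tested genes called (black marks). The 4 comparisons with R1 have 12 to 15 called members, and the 6 others have 2 to 7.

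Parthenogenetic and fertilised lines were compared with the line as the replicate, 3 lines against 2. No member and no gene was called (0% of all genes). At an unadjusted p under 0.05 in the limma fit there were 4 members, 9.52%, and 606 genes in all, 4.73%. The smallest adjusted p of a member was 0.92. For Dkk1 the parthenogenetic mean was 3.84 and the fertilised mean 6.01, but the fertilised mean averages R1 at 8.25 and NmB6D2 at 3.77, and NmB6D2 lay among the parthenogenetic lines. With NmB6D2 left out, R1 is the lone fertilised line and the spread comes from the 3 parthenogenetic lines alone, R1 being assumed to vary like them. In that fit the parthenogenetic mean minus R1 was -4.42 for Dkk1, -4.18 for Rspo3, -3.93 for Sp5 and -2.76 log2 units for Fzd1. These differences rest on the single line R1, and Rspo3 passed the filter only through the R1 arrays.

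The rest of the pathway was followed in lists that do not contain the members. Receptors and secretion factors outside the member families had 9 of 15 tested genes called among the lines, 60%, where 32.9% of all genes were called. In R1, 4 were higher than in each other line (2.79% of all genes), among them Wls, the carrier that brings Wnt to the cell surface (8.38 against 5.34 to 7.05), Gpc3, a glypican (9.48 against 6.39 to 6.86), and the receptor gene Tnfrsf19 (8.28 against 4.54 to 4.82). Lgr5, also among these 4, was below the filter value on every array outside R1, so it passed the filter only through R1. Porcn, the enzyme that attaches the lipid to Wnt proteins, was lower in R1 than in each other line, at 5.59 against 8.01 to 8.85. It was 5.37-fold below NmB6D2 (adjusted p = 1.7e-13). Of 7 other secreted inhibitors tested, 4 were called (57.1%, all genes 32.9%), and Apcdd1 (10.3-fold above NmB6D2) and Igfbp4 (4.39-fold) were higher in R1 than in every other line.

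Of 26 tested genes of Dishevelled and the destruction complex 5 were called among the lines (19.2%, all genes 32.9%), and none was higher or lower in R1 than in every other line. Dvl1 was 2.38-fold lower in FpB6D2 than in NmB6D2 (adjusted p = 8.8e-08). Of 25 nuclear cofactors 9 were called, a share of 36% that is near the background, and Tle6, of the Groucho family of co-repressors, was lower in R1 than in each other line (5.26 against 6.73 to 7.38). The planar polarity and calcium branch had 7 of 17 called (41.2%), with Prickle1 higher in R1 than in every other line and Celsr1 lowest in FpB6D2 (4.61 against 6.57 in NmB6D2).

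Of 22 tested genes listed as β-catenin targets outside the members, 17 were called among the lines (77.3%, all genes 32.9%) and 9 were higher in R1 than in each other line (all genes 2.79%). In R1 against NmB6D2, 11 were called higher and 0 lower, with a median difference of 0.95 log2 units (all genes -0.04), beside 7.39% of all genes called higher. Lgr5 and Mixl1 were below the filter value on every array outside R1. They passed the filter only through R1, so they had to differ to be tested. Tnfrsf19, Lgr5 and Apcdd1 are also in the receptor or inhibitor list, and Mixl1 and Eomes in the mesendoderm list. The follistatin gene Fst was 10-fold higher (adjusted p = 3.5e-11) and the primitive streak factor Mixl1 at least 7.77-fold (adjusted p = 6.8e-13). Of 13 genes that Tcf7l1 is known to hold down in ES cells 11 were called among the lines (84.6%). In R1 against NmB6D2, 6 of the 13 were higher and 1 lower, where 12.9% of all genes were called. In FpB6CBA against R1, 1 was higher and 9 lower, where 18.2% of all genes were called and 9.67% were lower. Tcl1 and Tbx3 were lowest in NmB6D2 (5.53 and 5.88) and highest in FpB6D2 (9.33 and 9.41). Zfp42 was higher in R1 than in every other line (11.36 against 8.22 to 9.15), and Dppa3 was lower in R1 than in every other line. Lin28a was lower in FpB6D2 than in every other line.

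Markers of other cell types also differed with R1. All 4 tested mesendoderm markers, Mesp1, Evx1, Mixl1 and Eomes, were higher in R1 than in each other line (all genes 2.79%). T was not matched to a gene, and Gsc was not tested, since it reached the filter value on fewer than 3 arrays. Gsc was below that value on every array of R1, NmB6D2, OpB6D2 and FpB6CBA, but not on every FpB6D2 array. Mixl1 passed the filter only through R1, and Eomes is also in the trophectoderm list. The mean of the 5 matched markers was 7.226 to 7.35 on the R1 arrays and 4.249 to 4.788 on the others. Mesp1 was 24.5-fold above NmB6D2 (adjusted p = 4.9e-11). The fibroblast list, for feeder cells, had 8 of 13 tested genes higher in R1 than in NmB6D2 (all genes 7.39%). Its list mean was 7.503 to 7.565 on the R1 arrays against 6.328 to 7.247 elsewhere. Col3a1 and Col1a1 were higher in R1 than in every other line, Dcn was at 4.79 in R1 and 5.97 in FpB6CBA, and Lum was below the filter value in all lines. Thy1 and S100a4 had their lowest means in R1 (5.95 and 6.85) and were called lower there than in each of the 3 parthenogenetic lines (7.20 to 7.46 and 8.03 to 8.52). The primitive endoderm list was at 5.79 to 5.963 in R1, 6.293 to 6.502 in FpB6CBA and 4.78 to 5.206 in the other lines. Its genes did not move together in R1. Against NmB6D2, 4 of the 7 were called higher in R1 and 1, Dab2, lower, where 12.9% of all genes were called and 7.39% were higher. Gata4 was higher in R1 than in each other line (7.41 against 3.95 to 5.51). Dab2 (5.82) and Sox7 (3.59) had their lowest means in R1, but Sox7 was not called against NmB6D2. Among the lines, 7 of 8 tested trophectoderm, 3 of 4 neuroectoderm and 3 of 6 pluripotency markers were called, beside 32.9% of all genes. The trophectoderm list mean was highest in NmB6D2, at 7.739 to 7.827, against 6.777 to 6.948 in R1 and 5.728 to 7.086 in the parthenogenetic lines. Elf5 of this list was below the filter value on every array outside NmB6D2, while Eomes was highest in R1 (10.08). Of the called pluripotency markers, Zfp42 was highest in R1 (11.36), Utf1 lowest in R1 (9.93 against 10.88 to 11.5) and Nanog highest in FpB6D2 (11.39). The part of these cell types in the R1 differences of Wnt5a, Rspo3, Dkk1, Sp5 and the other members was not tested. In such bulk samples, a change in the share of cells that express a gene and a change in its level per cell cannot be told apart.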

How the data were processed

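The authors deposited log2 intensities for every probe set on each array, made with RMA in the affy package, per the submitters' processing notes; versions and settings are not given in the sources used here. The log base was inferred from the values. Of 45101 probe sets, 34945 carried 1 gene symbol, 932 several and 9160 none, and 64 were controls. Each of 18193 genes was represented by its brightest single-gene probe set, by the mean over 15 arrays. Genes that reached 3.864 on at least 3 arrays were tested (12813, with 5380 removed), with no further normalisation.

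With limma 3.58.1 in R 4.3.3, 1 model over the 15 arrays with a term for each line gave 10 pairwise contrasts and a moderated F test among the 5 lines. The F call required 1 log2 unit between the highest and lowest line mean. Mode of origin was fitted on the 5 line means. P values were adjusted by Benjamini-Hochberg over all tested genes. The fit was tested on simulated data.

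The members and gene lists were chosen with earlier results of these data known. Every member is named. Members called among the lines have their values given. Genes of other lists are named only where called, at most 4 per list by range of line means. Exceptions are genes higher or lower in 1 line than in each other, and the markers Pou5f1, Sox2, Dcn, Lum, T, Gsc, Thy1 and S100a4. These markers were added after the values were seen. Alternatives were other filters, other choices of probe set, centring, quantile normalisation, array weights, the replicate number as a block, and leaving out each array or line. The block used only the arrays with a number in their title. Promoter windows came from RefSeq. Precision is limited by the small number of arrays. Plots used matplotlib 3.10.9.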

Additional observations from a re-analysis of the deposited data

How the results depend on the processing

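The members' 80 pairwise calls were recomputed under the alternatives, which gave 1996 values. Of these 1955 kept direction and call, 41 kept direction and lost the call, and 0 reversed; 58 calls were kept under every alternative that gave a value. The number of members higher in R1 than in each other line ranged from 9 to 11, and from 10 to 11 when single arrays were left out. The number called among the lines ranged from 18 to 24. Averaging all probe sets of a gene reduced the FpB6CBA against NmB6D2 count from 3 to 1. Leaving out the line NmB6D2 raised the count for parthenogenetic against fertilised lines from 0 to 4, in a fit where R1 is a lone line assumed to vary like the others.

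Titles number 13 arrays, and arrays of different lines with the same number did not deviate together: their correlations ran from -0.18 to 0.13, with 1 of 12 pairs over 0.1, against -0.11 to 0.14 for different numbers. With the replicate number as a block, fitted on these 13 arrays alone, 15 members were called for R1 against NmB6D2. In the same fit 11 were higher in R1 than in each other line. That fit leaves out the 2 arrays without a number, OpB6D2 replicate 1 and FpB6CBA replicate 2. In it 5 calls were lost, those of Fzd2 and Lrp5 (FpB6D2 against NmB6D2), Wnt7b (FpB6CBA against NmB6D2), Tcf7l1 and Notum. Lrp5 stood at -0.996, Tcf7l1 (FpB6D2 against R1) at 0.99 and Notum (FpB6CBA against OpB6D2) at -0.97. The Wnt7b call was also lost when only FpB6CBA replicate 2 was left out. The block and the dropped arrays cannot be told apart in this fit, and the cause was not tested. No detection calls were used, so 3.864 stands in for background, which limits the folds of Dkk1, Rspo3, Sp5, Wnt5a and Wnt5b.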
